A study of Homo sapiens with 6 samples.

Results

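The 10 genes described here encode the small nuclear RNA 7SK and its partners, and other short structural RNAs. They are RN7SK, the RNA itself; HEXIM1, LARP7 and MEPCE, proteins that bind it; CDK9 and CCNT1, the kinase and cyclin of the elongation factor P-TEFb; RN7SL1 and RN7SL2, which encode the 7SL RNA of the signal recognition particle; and RMRP and RPPH1, the RNAs of RNase MRP and RNase P. They were found by symbol among 60564 rows with an Ensembl identifier, and each matched 1 row. The members were chosen by their counts in this same comparison of control and formononetin, so their own differences between groups are a description and carry no test. All 10 passed the filter on low counts, which left 22230 genes.

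RNA sequencing compared 3 control and 3 formononetin libraries of HepG2, an established human liver tumour line labelled as wild type. Control cells are labelled with DMEM, the culture medium, as their treatment, with no solvent named. Treated cells received formononetin, a plant isoflavone, at a dose written as 625 μm for 72 h, and the labels do not give a time for the controls. Whether replicates were separate cultures is not stated, so spreads and p-values measure only the variation among these libraries, which may be technical.

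The 7SK RNA is made by RNA polymerase III and acts as a scaffold. MEPCE caps its first base, LARP7 binds its end, and through HEXIM1 it holds P-TEFb inactive. Released P-TEFb phosphorylates RNA polymerase II and its pausing factors, so that paused polymerase moves into the gene body. RMRP and RPPH1 are catalytic RNAs that cut precursors of ribosomal and transfer RNA, and 7SL guides ribosomes to the endoplasmic reticulum. The mature forms of these 5 RNAs carry no poly(A) tail.

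Libraries held 30848848 to 45682722 counts on rows with an Ensembl identifier, with higher totals in every formononetin library. All 8 hepatocyte markers examined were measured in every library, from APOB at 25652 ± 344 CPM in control (SD, n = 3; CPM, counts per 1000000 of the scaled library total) to TTR at 113 ± 2.40 CPM. In the fit across all genes TF, SERPINA1, TTR, ALB, AFP and APOB fell (log2 fold changes -0.64, -0.57, -0.55, -0.46, -0.40 and -0.13), HNF4A rose (0.44) and APOA1 was not called (0.07). The call of APOB ended in 8 of 15 alternative settings and the others held. Of 10 markers of blood, endothelial, fibroblast and stellate cells, 5 (PTPRC, COL1A2, DCN, HBB and CD3E) had no count in any library. The summed level of the marker list was 24.6 to 29.6 CPM in control and 31.7 to 34.6 CPM in formononetin libraries, most of it PECAM1 (23.2 and 25.7 CPM). CD68, of macrophage lysosomes, was at 3.34 and 6.72 CPM, and the part of such markers in the results was not tested. The mitochondrial ribosomal RNAs MT-RNR1 and MT-RNR2 had at most 0.0441 CPM in any library, whereas the structural RNA members were among the most counted rows.

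The 5 structural RNA members are all short, from 264 bases (RMRP) to 333 bases (RPPH1), and RN7SK, RMRP and RPPH1 have a GC content of 58.2 to 64.6% and no run of A longer than 3. RN7SK (chromosome 6, 52995621 to 52995948, plus strand, GRCh38 by GENCODE 29) is shown first, by its bases 1 to 120, because the largest difference among them with groups apart lies in it. Capitals mark the motif GATC, whose RNA form, GAUC, is known in the stem that HEXIM1 binds.
RN7SK: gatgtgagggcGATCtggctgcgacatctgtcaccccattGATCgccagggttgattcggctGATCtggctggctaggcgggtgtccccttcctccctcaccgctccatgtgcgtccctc
The motif starts at bases 12, 41 and 63, counted from 1 at the 5′ end. It reads the same on both strands, and 89.4% of 1099 annotated short RNA transcripts of 250 to 350 bases hold at least 1 copy, and 309 (28.1%) hold at least 3, among them 73 RN7SK pseudogenes, copies of the RNA itself. A second annotated gene model covers the same 328 bases on the same strand, and it had 0.0203 CPM in control, so nearly all counts were given to 1 row.

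RN7SL1 and RN7SL2 both lie on chromosome 14 and are near-identical copies, so the split of counts between these rows is uncertain. RMRP (chromosome 9, 35657754 to 35658017, minus strand) and RPPH1 (chromosome 14, 20343075 to 20343407, minus strand) each lie within a longer gene model on the same strand, which held 0.0301 and 0.577 CPM in control.

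RN7SK, the 7SK RNA, was lower in every formononetin library. It was at 13077, 13029 and 13724 CPM in control replicates 1 to 3 and at 7500, 8183 and 9678 CPM in formononetin replicates 1 to 3. The groups did not overlap, and the spread was wider among treated libraries, with replicate 1 lowest and replicate 3 highest. The means were 13276 ± 388 and 8454 ± 1114 CPM (SD, n = 3 each), a log2 fold change of -0.65 ± 0.09 (standard error, edgeR). Leaving out any 1 library gave -0.77 to -0.58. The 293 rows of RN7SK pseudogenes, of which 103 had counts, were added to RN7SK after the values were seen, and the value was -0.65. Counts are shares of a library, so a lower value cannot be told apart from more of other RNAs, nor fewer cells holding the RNA from less RNA per cell.

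RMRP, the RNA of RNase MRP, was at 7637, 7114 and 6998 CPM in control and at 5601, 5833 and 6026 CPM in formononetin libraries. The groups were apart, with less spread between treated libraries than for RN7SK (7250 ± 340 and 5820 ± 213 CPM, log2 fold change -0.32 ± 0.05). RPPH1, the RNA of RNase P, was at 6367, 6090 and 6500 CPM in control and at 4926, 5211 and 4987 CPM in formononetin libraries. These too were apart (6319 ± 209 and 5041 ± 150 CPM, -0.33 ± 0.04). RMRP and RPPH1 thus kept nearly 1 proportion to each other, with 1.15 ± 0.0638 RMRP counts per RPPH1 count in control and 1.15 ± 0.0471 with formononetin. RN7SK counts per RMRP count were 1.71, 1.83 and 1.96 in control and 1.34, 1.40 and 1.61 in formononetin libraries, so RN7SK was lower also relative to RMRP. Within the treated group RN7SK and RMRP had the same order of libraries and RPPH1 another.

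**Figure D1:**
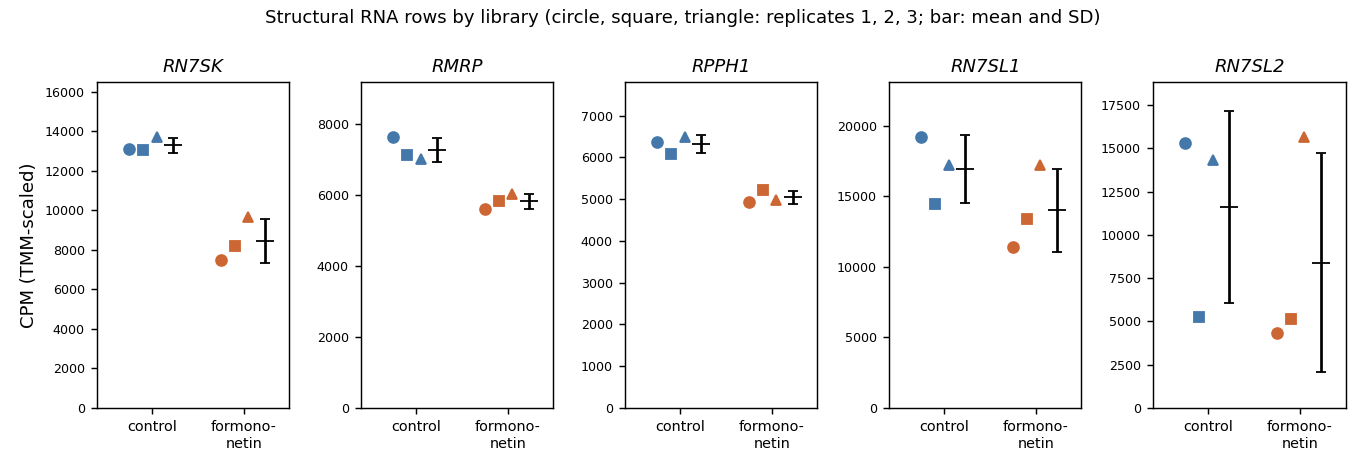
CPM of the 5 structural RNA rows (vertical axes from 0, 1 panel a gene) in 3 control and 3 formononetin libraries, with the mean and SD beside the points. Treated libraries lie below all controls for RN7SK, RMRP and RPPH1, at most 9678, 6026 and 5211 CPM, whereas RN7SL1 and RN7SL2 overlap between groups.

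The 7SL rows did not separate the groups. RN7SL1 was at 19232, 14450 and 17186 CPM in control and at 11382, 13396 and 17194 CPM in formononetin libraries, with formononetin replicate 3 inside the control range. RN7SL2 was at 15314, 5240 and 14306 CPM in control and at 4353, 5117 and 15687 CPM in formononetin libraries. Its libraries lay at a high or a low level with nothing between, and each group held both levels. The fitted log2 fold change of RN7SL2, -0.47 ± 0.56, was smaller than its standard error and ran from -1.30 without formononetin replicate 3 to -0.16 without formononetin replicate 1.

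An assembled locus without a gene name, MSTRG.4565, had the reverse pattern. It held 47, 516715 and 29 counts in control replicates 1 to 3 and 546961, 473142 and 45 counts in formononetin replicates 1 to 3. It was thus nearly empty in the 3 libraries where RN7SL2 was high and held at least 473142 counts in the 3 where RN7SL2 was low. RN7SL4P, the 7SL pseudogene with the most counts, was at 3192, 97.8 and 2957 CPM in control and at 78.4, 88.6 and 3495.5 CPM in formononetin libraries, high where RN7SL2 was high. RN7SL1 too was higher in these libraries, at 17186 to 19232 CPM against 11382 to 14450 CPM where RN7SL2 was low. RN7SL3, a further 7SL gene, was at 731 to 808 CPM against 611 to 668 CPM. The low libraries were control replicate 2 and formononetin replicates 1 and 2. Within each group RN7SK too was lowest in them, at 13029 CPM in control and 7500 and 8183 CPM with formononetin. RMRP was so only with formononetin and RPPH1 only in control. The part of this split in the group differences of RN7SL1, RN7SK and the other short RNAs was not tested. No coordinates of MSTRG.4565 were used here, and whether its reads come from 7SL was not tested.

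RN7SL2 and MSTRG.4565 summed were at 15316, 19660 and 14307 CPM in control and at 17909, 17507 and 15688 CPM in formononetin libraries. The groups overlapped, with means of 16427 ± 2844 and 17034 ± 1184 CPM and a log2 ratio of 0.05 that ran from -0.04 to 0.20 when 1 library was left out. With RN7SL4P added, a sum chosen after the values were seen, and fitted as 1 row, controls were at 17148 to 19624 CPM and treated libraries at 17476 to 19053 CPM, a log2 fold change of -0.02 ± 0.06. RN7SL1 and RN7SL3 were then added as well, again after the values were seen. Libraries held 34602 to 38269 CPM in control and 29777, 31446 and 36934 CPM with formononetin (-0.14 ± 0.08). On the log2 scale the summed rows therefore differed by less than RN7SL2 alone. In CPM the last sum differed about as much as RN7SL2, with control and formononetin means of 35939 and 32719 against 11620 and 8386. Formononetin replicates 1 and 2 lay below every control in that sum, and replicate 3 stayed within the control range in each sum.

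**Figure D2:**
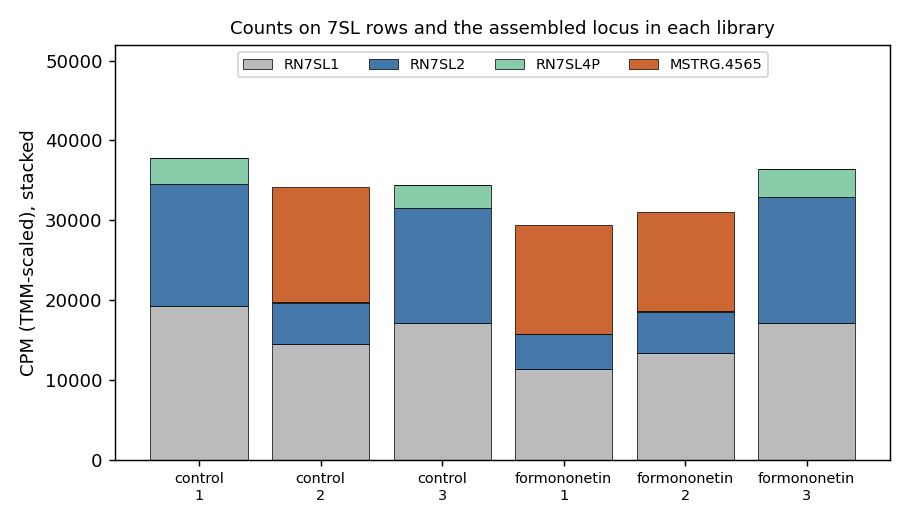
Stacked CPM (vertical axis, from 0) of RN7SL1, RN7SL2, RN7SL4P and the assembled locus MSTRG.4565 in each of the 6 libraries. Control replicate 2 and formononetin replicates 1 and 2 hold 12390 to 14419 CPM on MSTRG.4565 and little on RN7SL4P, and the other 3 libraries hold at most 1.54 CPM on it.

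The 5 structural RNAs together took 6.08, 4.54 and 5.76% of counts in control and 3.49, 3.85 and 5.32% in formononetin libraries, with overlap. MSTRG.4565, whose origin was not tested, was then counted with them, a share not planned beforehand. The shares became 6.08, 5.88 and 5.76% against 4.82, 5.05 and 5.32%, which did not overlap. The difference of the means moved from -1.24 to -0.84 percentage points. Counts on mitochondrially encoded genes, given as a measure of library make-up, were 3.80, 3.92 and 3.81% in control and 2.81, 3.28 and 3.57% in formononetin replicates 1 to 3. Treated libraries ran in the same order as for RN7SK, whereas control replicate 2 had the highest mitochondrial share and the lowest RN7SK of the controls. The part of mitochondrial counts in the RN7SK difference was not tested.

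Of the 5 protein genes, 3 lay above all controls in each treated library and none below, where 20.8% of all genes tested lay above and 18.7% below. HEXIM1, the P-TEFb inhibitor, was at 119, 117 and 127 CPM in control and at 141, 132 and 132 CPM in formononetin libraries. The groups did not overlap, although the highest control and the lowest treated libraries lay close together (121 ± 5.21 and 135 ± 5.37 CPM, log2 fold change 0.16 ± 0.05, and 0.09 under upper quartile scaling). MEPCE, which caps 7SK, was at 36.3, 44.6 and 45.9 CPM in control and at 55.4, 55.5 and 54.2 CPM in formononetin libraries. Treated libraries were nearly equal and control replicate 1 was lowest (42.3 ± 5.20 and 55.0 ± 0.751 CPM, 0.38 ± 0.09). LARP7, which protects the end of 7SK, was at 12.3, 13.5 and 13.4 CPM in control and at 14.2, 12.9 and 11.05 CPM in formononetin libraries. These overlapped, with a log2 fold change of -0.04 ± 0.11 that ran from -0.13 without formononetin replicate 1 to 0.04 without formononetin replicate 3.

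CDK9, the kinase of P-TEFb, was at 36.9, 39.6 and 42.3 CPM in control and at 40.6, 39.4 and 39.7 CPM in formononetin libraries. All treated values lay inside the control range (0.01 ± 0.07, and -0.07 under upper quartile scaling). CCNT1, cyclin T1, was at 43.8, 43.7 and 41.2 CPM in control and at 46.8, 58.6 and 47.1 CPM in formononetin libraries. The groups did not overlap, but replicate 2 alone was far above the controls (42.9 ± 1.43 and 50.8 ± 6.75 CPM, 0.24 ± 0.10, and 0.13 without that library). The protein genes lie on chromosome 17 at 45148502 to 45152101 (HEXIM1, plus strand, a single exon), chromosome 4 at 112636964 to 112657592 (LARP7, plus), chromosome 7 at 100428790 to 100434126 (MEPCE, plus), chromosome 9 at 127785679 to 127790787 (CDK9, plus) and chromosome 12 at 48688458 to 48716998 (CCNT1, minus). The exons of HEXIM1, LARP7 and MEPCE overlap genes on the opposite strand, by 520 bases with AC138150.1 for HEXIM1, 32 bases with ZGRF1 and 302 bases with AC106864.1 for LARP7, and 203 bases with ZCWPW1 for MEPCE. ZGRF1 was at 9.7 CPM in control and 15.4 CPM with formononetin, against 13.1 and 12.7 CPM for LARP7. No source used here names the strand setting of the counting, which leaves the levels of HEXIM1, LARP7 and MEPCE uncertain to that extent.

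**Figure D3:**
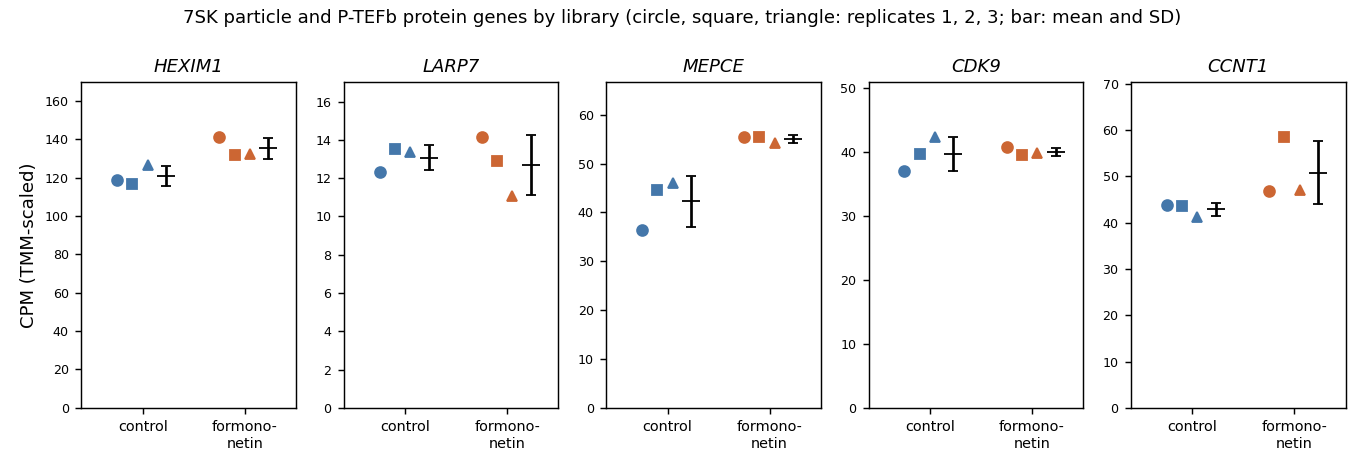
CPM of the 5 protein genes (vertical axes from 0, 1 panel a gene) in the 6 libraries, with the mean and SD beside the points. Treated libraries lie above all controls for HEXIM1, MEPCE and CCNT1, at least 132, 54.2 and 46.8 CPM, and overlap them for LARP7 and CDK9.

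In the fit across all genes 4 of the 10 members had an adjusted p under 0.05, 3 of them lower with formononetin (RN7SK, RMRP and RPPH1) and 1 higher (MEPCE), where 20.7% of the 22230 genes did (12% higher and 8.71% lower). Under upper quartile scaling the direction of calls over all genes turned, from 2659 higher and 1937 lower to 1813 higher and 2737 lower. The groups did not overlap for 6 members, 3 in each direction, against 39.4% of all genes (20.8% above and 18.7% below). Nothing is read from these counts, because the members were chosen with this comparison known. MEPCE passed no longer when any 1 formononetin library was left out or under upper quartile scaling.

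Ratios of raw counts within a library need no scaling between libraries. RN7SK had 110, 112 and 108 counts per HEXIM1 count in control and 53.0, 62.0 and 73.2 in formononetin libraries. The highest treated ratio was well below the lowest control ratio (110 ± 1.58 and 62.7 ± 10.1). Per MEPCE count, RN7SK had 360, 292 and 299 counts in control and 135, 147 and 179 with formononetin. Per CDK9 count it had 354, 329 and 324 in control and 185, 207 and 244 with formononetin, again apart. Per LARP7 count the gap was narrower, with 1061, 963 and 1026 against 529, 635 and 876. HEXIM1 counts per CDK9 count were 2.95 to 3.21 in control and 3.33 to 3.48 with formononetin, a small gap and no overlap. CCNT1 counts per CDK9 count, the 2 parts of P-TEFb, overlapped (0.974 to 1.19 and 1.15 to 1.49).

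**Figure D4:**
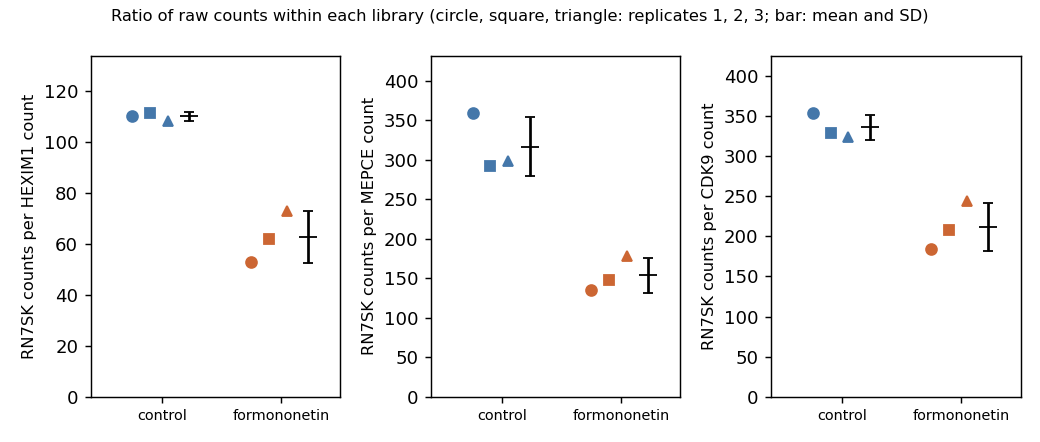
Raw RN7SK counts per HEXIM1, MEPCE or CDK9 count (vertical axes, from 0) in the 6 libraries, with the mean and SD beside the points. For all 3 partners the treated libraries lie below the controls, at most 73.2, 179 and 244 counts.

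Levels can be compared between genes only per length. Per kilobase of annotated exon, controls held 56710 ± 8026 CPM of RN7SL1, 40480 ± 1183 of RN7SK, 38730 ± 18490 of RN7SL2, 27460 ± 1289 of RMRP and 18980 ± 627 of RPPH1. RN7SL2 varied so much between libraries that it did not differ beyond its spread from its neighbours RN7SK and RMRP, nor from RN7SL1. The protein genes were far lower, at 33.5 ± 1.45 CPM per kilobase for HEXIM1, 13.2 ± 0.900 for CDK9, 12.4 ± 1.52 for MEPCE, 5.81 ± 0.194 for CCNT1 and 3.20 ± 0.161 for LARP7. CDK9 and MEPCE did not differ beyond their spread. With formononetin MEPCE (16.1 ± 0.220) stood above CDK9 (13.3 ± 0.211), and RN7SK was at 25770 ± 3397. How RNAs without a poly(A) tail entered libraries made with an mRNA kit was not tested, so these levels need not reflect their share in the cell.

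The genes whose pattern over the 6 libraries was most like that of RN7SK, by the root mean square difference of log2 CPM centred on each gene's mean, were SERPINA11 (0.0665), SSUH2 (0.0674) and APTR (0.0689), among 8969 candidates. Nearest to HEXIM1 were MGAT4B (0.0194), SRRD (0.0214) and RHBDD3 (0.0254).

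The gene lists from here on were chosen with earlier results of these data known, so their counts of calls are a description. Elongation factors around P-TEFb moved both ways. Of 35 listed and tested, 3 rose and 6 fell, a share called of 25.7% against 20.7% of all genes, with a median log2 fold change of -0.05 against -0.01. MLLT3 and ELL2, parts of the super elongation complex that carries P-TEFb, fell from 18.04 ± 0.740 to 12.6 ± 0.483 CPM and from 250.1 ± 17.7 to 194 ± 3.66 CPM (n = 3, log2 fold changes -0.52 ± 0.08 and -0.37 ± 0.06, edgeR adjusted p = 0.00386 and 0.0046). CDK13, another kinase of the polymerase tail, fell by 0.36 ± 0.06 on the log2 scale (adjusted p = 0.00815). CTR9, of the PAF1 complex, rose from 48.03 ± 1.29 to 58.5 ± 3.89 CPM (0.28 ± 0.06, adjusted p = 0.0198). CTR9 lost its call in 5 of 15 settings, namely upper quartile scaling and the omission of either of control replicates 1 and 2 or of formononetin replicates 1 and 3 (adjusted p from 0.0078 to 0.0803). The list had 0 raised and 12 lowered under upper quartile scaling, 5 of each with library totals alone, and 0 raised and 5 lowered once formononetin replicate 1 was omitted.

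Of 14 proteins that bind 7SK or other structural RNAs outside the core particle, 2 were raised and 2 lowered. This was 28.6% against 20.7% of all genes, with a median of 0.03. Under upper quartile scaling 2 were raised and 4 lowered. HMGA1, a chromatin protein that binds 7SK, rose from 103 ± 1.57 to 145.5 ± 9.56 CPM (0.50 ± 0.06, edgeR adjusted p = 0.00118). The splicing factor HNRNPA1, found on 7SK that is free of P-TEFb, fell from 921 ± 83.2 to 734 ± 8.28 CPM (-0.33 ± 0.06, adjusted p = 0.0124), and HNRNPA2B1 of the same family rose from 507 ± 21.5 to 613 ± 38.5 CPM (0.27 ± 0.06, adjusted p = 0.015). The call of HNRNPA2B1 ended with a replicate block and without control replicate 3 (adjusted p from 0.0042 to 0.0547). HNRNPA1 and HMGA1 have processed copies in the genome, so the assignment of their reads is uncertain.

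RNA polymerase III subunits and factors had 6 of 30 raised and 2 lowered, with a median of 0.15. This was 26.7% against 20.7% of all genes, of which 12% were raised and 8.71% lowered. POLR3K and POLR3G, subunits of the enzyme, rose from 11.5 ± 0.515 to 17.3 ± 1.61 CPM and from 2.69 ± 0.287 to 4.18 ± 0.497 CPM (0.60 ± 0.09 and 0.63 ± 0.15, edgeR adjusted p = 0.00497 and 0.0247). GTF3A, the factor for 5S RNA genes, rose from 42.2 ± 6.86 to 60.6 ± 7.13 CPM (0.52 ± 0.13, adjusted p = 0.0321). ZNF143, an activator of genes with 7SK-like promoters, fell from 23.1 ± 1.28 to 17.2 ± 0.774 CPM (-0.42 ± 0.08, adjusted p = 0.0083). POLR3G and GTF3A each lost the call in several settings, among them the omission of formononetin replicate 1 or of replicate 2 (adjusted p as high as 0.0789 and 0.103). Calls in the list numbered 4 once formononetin replicate 1 was omitted, and 5 once control replicate 3, formononetin replicate 2 or its replicate 3 was.

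Protein partners of the other structural RNAs were more often higher than lower. Of 11 protein genes of RNase P and RNase MRP, 5 were raised and 0 lowered, and the median was 0.44. This was 45.5% against 20.7% of all genes. Under upper quartile scaling 5 were raised and 1 lowered. POP7 rose from 15.2 ± 0.615 to 25.1 ± 0.903 CPM (0.72 ± 0.07, edgeR adjusted p = 0.00078), POP4 from 8.10 to 12.9 CPM to 17.2 to 18.5 CPM (0.71 ± 0.17, adjusted p = 0.0233) and POP1 from 9.04 ± 0.994 to 13.3 ± 0.659 CPM (0.56 ± 0.11, adjusted p = 0.0103). All 3 encode shared subunits of both enzymes. POP4 was not called without control replicate 2 or any 1 formononetin library (adjusted p from 0.00038 to 0.0716), and without formononetin replicate 1 the list had 3 calls. RMRP and RPPH1, the RNAs of these enzymes, had the opposite sign.

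Of 8 protein genes of the signal recognition particle and its receptor, 4 were raised and 0 lowered. This was 50% of a short list against 20.7% of all genes, and the median was 0.19. SRP9, which binds the Alu end of 7SL with SRP14, rose from 62.0 ± 1.21 to 83.8 ± 1.07 CPM (0.44 ± 0.04, edgeR adjusted p = 0.000875). SRPRB, a receptor subunit, rose from 50.9 ± 4.40 to 71.5 ± 3.61 CPM (0.49 ± 0.08, adjusted p = 0.00464), and SRP14 from 18.3 ± 1.62 to 23.5 ± 2.48 CPM (0.36 ± 0.10, adjusted p = 0.0474). The call of SRP14 was lost in 8 of 15 settings (adjusted p from 0.0196 to 0.135). The list had only 2 calls under upper quartile scaling, and 2 when control replicate 2 or any 1 formononetin library was omitted.

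The list of other short structural RNAs included more calls downwards than upwards. Of 38 listed, 37 had a row and 20 passed the filter. Of these 5 fell and 1 rose, 30% against 20.7% of all genes, with a median of -0.23. Treated libraries lay below all controls for 10 of the 20 and above them for 1, where 18.7% and 20.8% of all genes did. The guide RNA SCARNA2, of Cajal bodies, fell from 139 ± 5.36 to 105 ± 4.51 CPM (-0.41 ± 0.05, edgeR adjusted p = 0.00195), and SNORA73A from 118 to 129 CPM to 78.0 to 96.4 CPM (-0.47 ± 0.08, adjusted p = 0.00699). SNORD3A, the U3 RNA of ribosome assembly, fell from 3.09 ± 0.134 to 1.97 ± 0.0948 CPM (-0.65 ± 0.13, adjusted p = 0.0133). SNORA73B and SCARNA13 fell by 0.37 ± 0.10 and 0.27 ± 0.06 on the log2 scale (adjusted p = 0.0459 and 0.0252), and lost their calls in 8 and 6 of 15 settings, most of them with a library left out (adjusted p up to 0.126 and 0.0805). RN7SL3, the third gene for 7SL, was at 633 to 786 CPM in control and 611 to 808 CPM with formononetin and was not called (-0.04 ± 0.12, adjusted p = 0.836).

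Among the listed RNAs of at least 1 CPM, the spliceosomal RNAs RNU1-1, RNU4-1 and RNU4-2 (-0.09, -0.22 and -0.27) and the Cajal body RNAs SCARNA5, SCARNA6, SCARNA7 and SCARNA10 (-0.13, -0.16, -0.23 and -0.22) were not called (edgeR adjusted p from 0.128 to 0.693). Of these RNU4-1, RNU4-2 and SCARNA5 were lower in every treated library than in any control, and the others overlapped. In single settings SCARNA5 was called under upper quartile scaling, SCARNA7 without formononetin replicate 3 and SCARNA10 without control replicate 1 (adjusted p = 0.0297, 0.0451 and 0.00555). The rise was that of SNORD118, the U8 RNA, with 1 count in each control library and 64 to 66 in formononetin libraries. Its ratio of 54.4, from counts summed by group, has an exact 95% counting interval of 18.3 to 266, which leaves out variation between libraries. The interval also takes each value as a count of reads, whereas MT-RNR2 and RNU7-1 held exactly 1 in every library. Whether a value of 1 stands for a read was not tested. All 134 bases of the SNORD118 model lie in an exon of TMEM107, which went from 1.99 to 3.47 CPM, so the counts of SNORD118 cannot be assigned. SNORA73A lies in an exon of SNHG3, and SCARNA10 overlaps AC006064.5, which was at 355 CPM in control and 269.7 CPM with formononetin. SCARNA2 lies within the model AL356488.2, which held 0.0301 CPM in control. SCARNA13 overlaps GLRX5 on the opposite strand by 127 bases. GLRX5 was at 47.6 CPM in control and 58.0 CPM with formononetin, and the strand setting of the counting is not named, so the level of SCARNA13 is uncertain to that extent. Summed over the list, libraries held 1828, 1696 and 1737 CPM in control and 1417, 1539 and 1737 CPM with formononetin, which overlap and run in the order of RN7SK among treated libraries.

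Replication-dependent histone genes, whose main transcripts also end without a poly(A) tail, went the other way. Of 28 listed, 27 had a row and 25 were tested. Of these 14 rose and 1 fell, 60% against 20.7% of all genes, with a median of 0.36. H4C8 rose from 104 ± 16.2 to 180 ± 3.68 CPM (0.79 ± 0.11, edgeR adjusted p = 0.00247) and H2BC11 from 48.6 ± 9.51 to 87.9 ± 5.21 CPM (0.86 ± 0.14, adjusted p = 0.00502). H2BC9 rose by 0.88 ± 0.23 and H2AC6 fell by 0.46 ± 0.12 (adjusted p = 0.0327 and 0.0386), calls that ended in 5 and 8 of 15 settings (adjusted p up to 0.103 and 0.107). The list had 8 or 9 calls, all upwards, when replicate 2 or replicate 3 of either group was omitted. Histone genes are near-copies of each other, so the split of their reads is uncertain. Summed, they were at 2256 to 2941 CPM in control and 3201 to 3602 CPM with formononetin. The median of the histone genes had the opposite sign to the values of RN7SK, RMRP and RPPH1.

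Of 3 long nuclear RNAs, MALAT1 was at 3069 ± 239 and 3532 ± 300 CPM, NEAT1 at 6184 ± 228 and 6375 ± 1518 CPM, and KCNQ1OT1 at 2443 ± 35.04 and 2219 ± 144 CPM, and none was called, although MALAT1 was higher and KCNQ1OT1 lower in every treated library than in any control (edgeR adjusted p = 0.108, 0.882 and 0.104). MALAT1 was called with library totals alone and with a replicate block, NEAT1 without formononetin replicate 3 and KCNQ1OT1 under upper quartile scaling. Immediate-early and other short-lived transcripts that are known to depend on P-TEFb had 1 of 15 raised and 1 lowered. This was 13.3% against 20.7% of all genes, with a median of -0.04. KLF10, a transcription factor, rose from 27.7 ± 0.162 to 47.0 ± 2.73 CPM (0.76 ± 0.06, adjusted p = 0.000423). BTG2, which restrains proliferation, fell from 21.5 ± 0.497 to 17.5 ± 1.16 CPM (-0.30 ± 0.08, adjusted p = 0.0324), a call lost in 8 of 15 settings (adjusted p from 0.0132 to 0.104). DESeq2 called 4 members of this list, 2 in each direction.

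**Figure D5:**
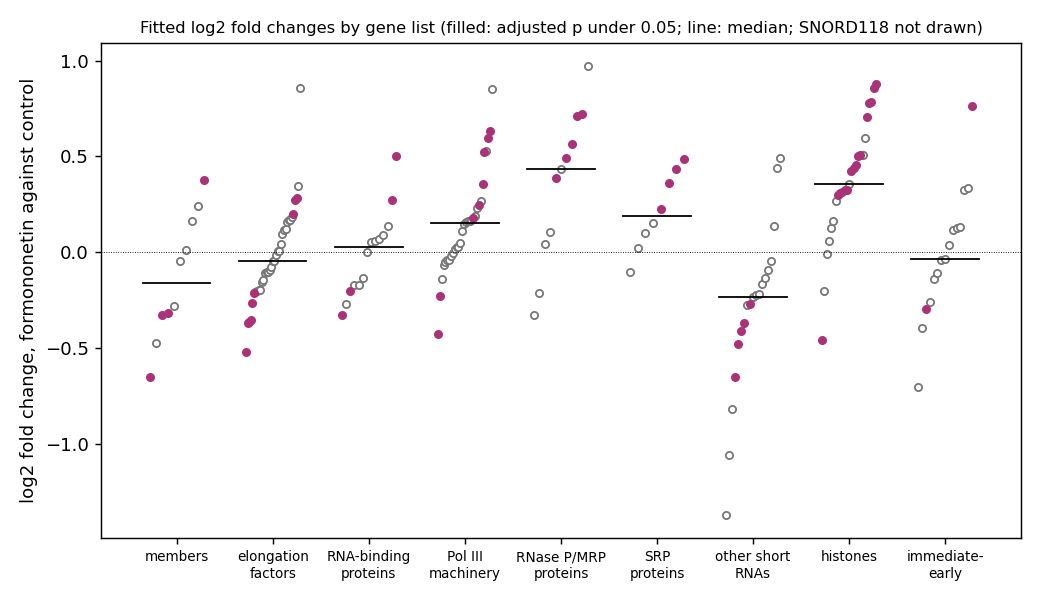
Fitted log2 fold changes of formononetin against control (vertical axis) for the 10 members and the tested genes of 8 lists, with filled points at adjusted p under 0.05 and a line at each median. The medians are 0.36 for histones, 0.44 for RNase P/MRP proteins and -0.23 for other short RNAs; SNORD118 is not drawn.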

How the data were processed

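The deposited table of the authors holds whole-number raw counts for each gene in 3 control and 3 formononetin libraries. Per the labels' protocols, libraries were made with a stranded mRNA kit from total RNA. The submitters' processing notes name GRCh38, STAR 2.5.3a and StringTie 1.3.1c; no counter, strand setting or annotation is named there, in the labels or in the file. The 2165 assembled MSTRG rows, 3.82 to 5.62% of counts, name no gene and stayed out of library sizes and tests, except where MSTRG.4565 is added to RN7SL2.

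Formononetin was compared with control by edgeR 4.0.16 in R 4.3.3 (filterByExpr, 22230 genes; TMM; quasi-likelihood F test, two-sided, Benjamini-Hochberg, threshold 0.05). CPM use TMM-scaled sizes, and standard errors are the log2 fold change over the square root of F. Tested on simulated data for 21797 genes of this comparison, the fit called 50 of 50 genes with a log2 change of 2, 42 of 50 with 1, 35 of 50 with -1, 20 of 50 with 0.5, and 5 of 21597 left unchanged. The simulation changed far fewer genes than were called here and set the spread by mean level alone, so these rates need not hold here. Positions, lengths and sequences came from GENCODE 29 (the sequences of RN7SL1 and RN7SL2 are not reported here), and symbols matched 60295 identifiers. No pair of replicates agreed within sampling noise (chi-square over its degrees of freedom, 13.5 to 34.55).

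Members and lists were chosen with earlier results of these data known. Named are all members, up to 3 called genes per list with the largest changes and 1 against them, other short RNAs of at least 1 CPM, nuclear RNAs and liver markers; CD68, PECAM1, RN7SL4P, TMEM107 and genes at 0 were named after their values were seen. Alternatives were DESeq2 1.42.0, other scalings, filters and library sizes, a replicate block and leaving out each library. Figures were drawn with matplotlib 3.10.9.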

Additional observations from a re-analysis of the deposited data

How the results depend on the processing

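Leaving out 1 library gave 3049 to 3667 changed genes against 4596, 5 to 7 called elongation factors against 9, 4 to 7 polymerase III genes against 8, 3 to 5 RNase P and MRP protein genes against 5, 2 to 4 signal recognition particle genes against 4, 8 to 16 histone genes against 15 and 1 to 2 immediate-early genes against 2. Fewest changed genes were found without formononetin replicate 3. Under upper quartile scaling 2 signal recognition particle genes were called. Immediate-early calls numbered 1 with library totals alone or with no filter and 4 with DESeq2. In 15 settings for each of 10 members, none that was called changed sign; 4 values moved by more than the spread between replicates, all under upper quartile scaling, which shifted the median of all genes by -0.08 on the log2 scale (HEXIM1 0.09, CDK9 -0.07, RMRP -0.40, RPPH1 -0.40). The causes were not tested.

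The replicate numbers share no stated source, and deviations of same-numbered libraries correlated at -0.0362 to -0.00179 across genes. Over all pairs of a control and a formononetin library the values were -0.0362 to 0.0397. Whether same-numbered libraries share a batch that touches part of the genes was not tested. With a replicate block 3283 genes were called, 1921 raised and 1362 lowered, and no library correlated best with its own number. Listed short RNAs under 1 CPM rest on few counts, which limits what could be detected there.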
